A study of Mus musculus with 16 samples.

Results

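Matricellular proteins are secreted into the extracellular matrix but do not build it, and the 7 genes described here are Spp1, Tnc, Postn, Thbs1, Thbs2, Sparc and Sparcl1. They were taken by symbol from the probe-to-gene table of a mouse expression array and compared across 6 cell groups. All 7 were measured, by 8 probes in all, among 17710 genes with a name. Thbs2 had 2 probes and each of the others had 1.

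Matricellular proteins bind collagen, growth factors and cell-surface receptors such as integrins, and so tune how cells attach, migrate and respond to signals. In the healthy adult heart most of them are sparse, and osteopontin, tenascin-C and periostin are known for their rise after infarction or pressure overload. Several are also secreted by stromal cells of the bone marrow, where osteopontin is a known part of the niche of blood stem cells.

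The series asked how progenitor cells of the heart relate to those of the marrow, with cardiomyocytes as the control, all from C57BL/6 mice of genotype Normal. Heart c-kit cells were flow-sorted for the receptor c-kit (3 arrays), and heart Sca1 cells were sorted as Sca1+ CD45- CD31- (3 arrays). Heart side population cells were obtained by Hoechst 33342 efflux (2 arrays). Marrow c-kit cells were sorted from bone marrow (3 arrays), and marrow mesenchymal stem cells (MSC) were harvested after 5 passages in culture (3 arrays). Cardiomyocytes were collected by a short, slow centrifugation (2 arrays). The labels carry the same culture note, Matrigel and mTeSR medium, for every sample, and give no age, no number of animals and no sort purity. They do not say whether replicates are separate animals or cultures, and the spread behind each p-value, that from array to array, may therefore be a technical one.

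The values are log2 intensities of the Cy5 channel, and the intensities named below were recovered by setting the dimmest spot of each array, fill values aside, to 1, which made 100% of the other spots under 200 whole within 0.005. Median spot intensity ran from 15 to 200 between arrays, and it was lowest on both side population arrays (15 and 22) and on heart c-kit replicate 2 (18). Each array has a repeated fill value, which 3.38% to 13.8% of its spots share and whose meaning is not given in the sources used here. Levels were quantile normalised before they were compared, so a normalised log2 level of about 0 is the middle of an array (median -0.07) and the scale ends at 9.78. A level describes a gene against itself in other samples, since probes differ in how bright they are. No member spot was within 5% of the brightest spot of its array.

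Marker genes bore out the labels in part. The mean level of 8 cardiomyocyte markers was 6.16 to 6.29 on cardiomyocyte arrays, above every other array, but 13 endothelial markers (6.46 to 6.81) and 11 fibroblast markers (3.85 to 4.87) were high there too. The fibroblast markers had mean levels of 6.37 to 6.54 on heart Sca1 arrays and 5.54 to 5.69 on side population arrays. Heart c-kit arrays had 4.97 to 5.70 for the endothelial and 0.57 to 2.40 for the fibroblast markers. In MSC the fibroblast markers averaged 0.14 to 0.84: Pdgfra (5.08 ± 0.35) and Col1a2 (5.17 ± 0.52) were well above the middle of the array, whereas Dpt (-4.68 ± 1.41), Tcf21 (-4.34 ± 1.81) and Lum (-0.68 ± 3.19) were below it (SD, n = 3). The 13 macrophage markers were highest in MSC, at 4.96 to 5.65, with Laptm5 at 9.15 ± 0.12, C1qa at 7.88 ± 0.25 and Csf1r at 6.45 ± 0.53 (SD, n = 3). The group labelled MSC therefore carried macrophage markers and lacked several fibroblast markers, and it is called by its label here. Heart Sca1 replicate 3 stood apart from replicates 1 and 2, with an endothelial mean of 5.28 against 1.09 and 1.83 and a macrophage mean of 2.14 against -1.46 and -1.43. In sorted or cultured bulk RNA, fewer cells of a type and less RNA per cell cannot be told apart.

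**Figure D1:**
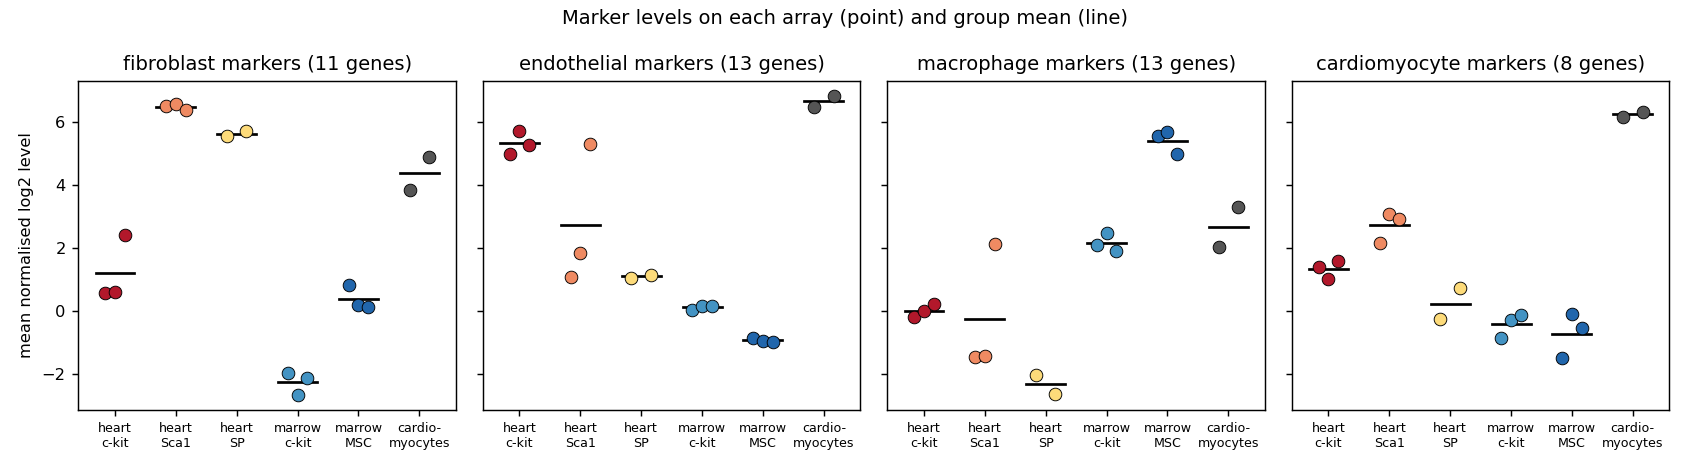
Mean normalised log2 level of 4 marker lists (y axis) on each of the 16 arrays, by cell group (x axis); points are arrays, lines are group means and SP is the side population. Macrophage markers are highest in marrow MSC (4.96 to 5.65), fibroblast markers in heart Sca1 cells (6.37 to 6.54), and cardiomyocytes are high for cardiomyocyte, endothelial and fibroblast markers.

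All 7 genes differed among the 6 groups (limma F-test, adjusted p under 0.05), as did 31.9% of all genes. The smallest adjusted p was that of Spp1 (4.36e-07, F = 88.8) and the largest that of Thbs1 (0.00189, F = 11.1). Over the 15 pairs of groups, 49 of 105 member differences were called at an adjusted p under 0.05, where 10.6% of all gene-by-pair differences were. Spp1 was called in 12 of 15 pairs, Sparcl1 and Tnc in 8 each, Postn and Thbs2 in 6 each, Sparc in 5 and Thbs1 in 4. For each of the 49 called differences the arrays of the 2 groups did not overlap, but groups this small often do not. Postn in heart Sca1 cells minus cardiomyocytes, for example, did not overlap either (0.64, limma adjusted p = 0.904). The share of such pairs over all genes was not computed, so the lack of overlap adds nothing to the calls.

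**Figure D2:**
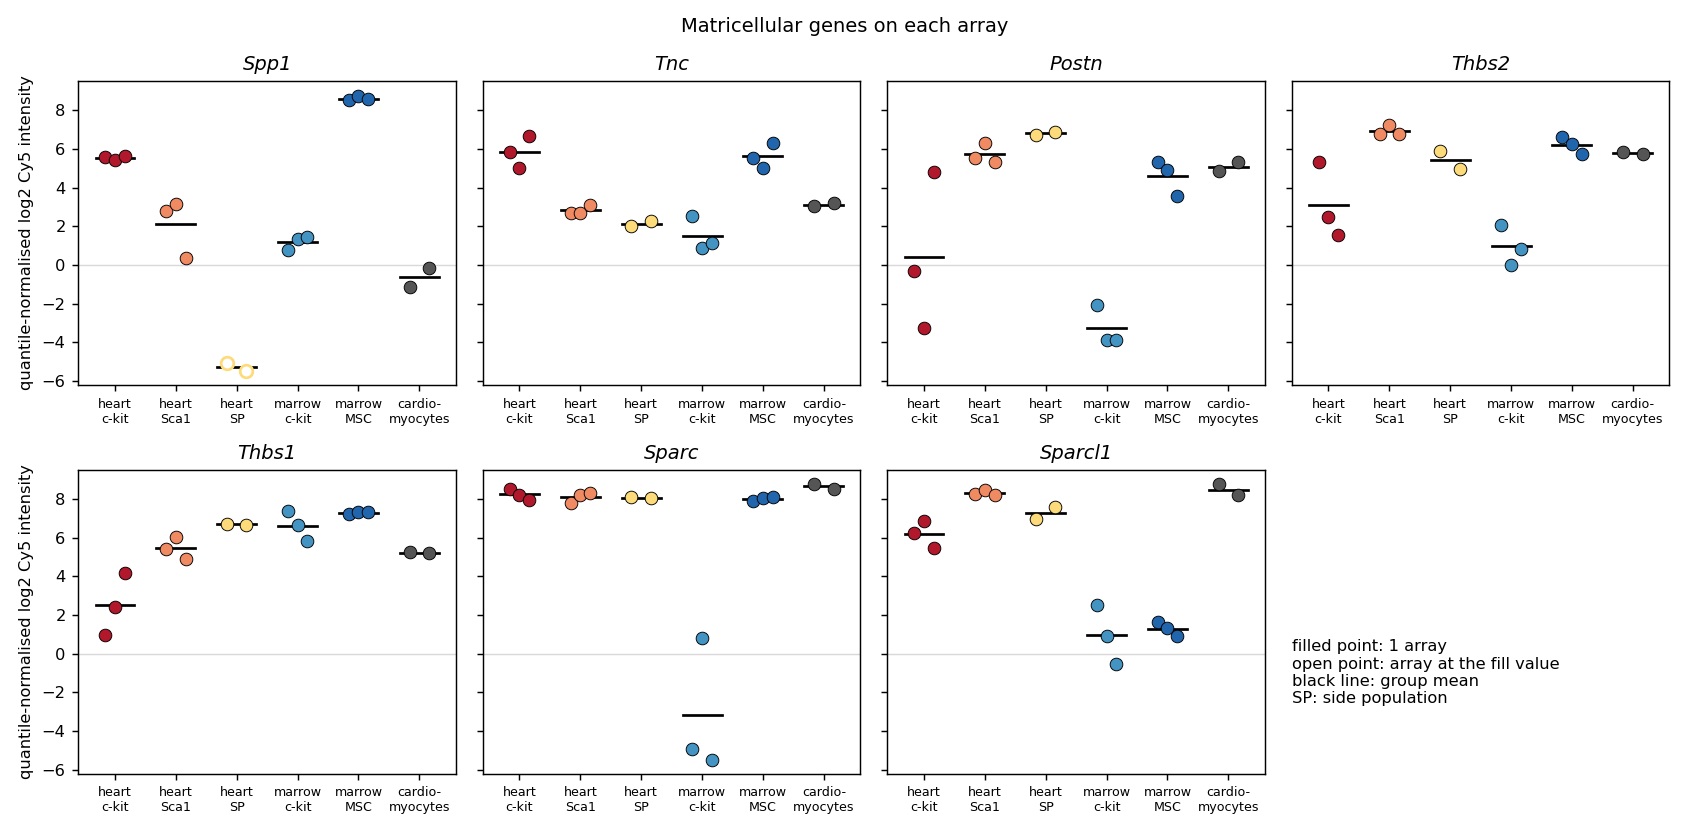
Normalised log2 level (y axis) of the 7 matricellular genes on every array, by cell group (x axis); points are arrays, open points are arrays at the fill value and black lines are group means. Spp1 and Tnc are high in heart c-kit cells and marrow MSC, Sparc is low only in marrow c-kit cells, and Sparcl1 is high in the 4 groups from the heart.

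Spp1 encodes osteopontin, a secreted phosphoprotein of bone and inflamed tissue that binds integrins and CD44. Its spot read 1541, 3321 and 5301 on the heart c-kit arrays, 897, 1119 and 156 on the heart Sca1 arrays, and the fill value on both side population arrays. It read 96, 236 and 163 on the marrow c-kit arrays, 42539, 57879 and 38238 on the MSC arrays, and 67 and 192 on the cardiomyocyte arrays. MSC arrays were the highest and heart c-kit arrays came next, and neither group overlapped with another. The normalised level averaged 5.54 ± 0.11 on heart c-kit arrays, 2.11 ± 1.51 on heart Sca1 arrays, 1.19 ± 0.34 on marrow c-kit arrays, 8.60 ± 0.11 on MSC arrays (SD, n = 3 each) and -0.64 ± 0.70 on cardiomyocyte arrays (SD, n = 2).

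MSC exceeded cardiomyocytes in Spp1 by 9.24 ± 0.73 log2 units (SE, adjusted p = 2.5e-05), a ratio of 603 on this scale. Heart c-kit cells exceeded cardiomyocytes by 6.18 ± 0.73 (adjusted p = 0.000488), heart Sca1 cells by 3.43 ± 0.65 (heart c-kit minus heart Sca1, adjusted p = 0.00426) and marrow c-kit cells by 4.35 ± 0.65 (adjusted p = 0.000506), and lay below MSC by 3.06 (log2 difference -3.06 ± 0.65, adjusted p = 0.00801). Heart Sca1 cells were below MSC by 6.49 (-6.49 ± 0.65, adjusted p = 3.79e-05), and so were marrow c-kit cells by 7.41 (-7.41 ± 0.65, adjusted p = 5.15e-06). For side population cells, where no spot was above the fill value, the size of a difference depends on that value. A bound was set by raising all levels under the 30th percentile of the scale (-2.27) to that percentile. Such a bound holds only if the fill value marks a low signal, which the sources used here do not say. By that bound Spp1 was at least 7.81 log2 units higher in heart c-kit and at least 4.38 higher in heart Sca1 than in side population cells. Side population cells minus MSC gave -10.87 or beyond, and side population minus marrow c-kit cells -3.46 or beyond. The same bound against cardiomyocytes was -1.64, and that difference was then not called (adjusted p = 0.204, against 0.0059 with the values as normalised). It was also not called without cardiomyocyte replicate 2 (-4.15, with a single array left in that group). The call was lost too with array weights (limma adjusted p = 0.127) and with the pair fitted alone (0.221). Fits of the pair alone also lost heart c-kit minus heart Sca1 cells (limma adjusted p = 0.0732) and heart c-kit cells minus cardiomyocytes (0.0779). They lost heart Sca1 minus side population cells as well (0.0523).

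The order of Spp1 levels was MSC, heart c-kit, heart Sca1, marrow c-kit, cardiomyocytes and side population. Of these neighbours, heart Sca1 and marrow c-kit cells differed by 0.92 (95% interval -0.48 to 2.33), and marrow c-kit cells and cardiomyocytes by 1.83 (0.25 to 3.40, adjusted p = 0.138), and neither was called. Heart Sca1 replicate 3, the array with raised endothelial and macrophage markers, was the one with the low Spp1 reading of 156, and without it 3 further Spp1 differences were called, namely heart Sca1 minus marrow c-kit cells (1.79, adjusted p = 0.0467), heart Sca1 cells minus cardiomyocytes (3.61, adjusted p = 0.0153) and marrow c-kit cells minus cardiomyocytes (1.83, adjusted p = 0.0477). Macrophage markers had mean levels of 4.96 to 5.65 on MSC, 2.03 to 3.30 on cardiomyocyte and 1.91 to 2.47 on marrow c-kit arrays. They had -0.19 to 0.21 on heart c-kit, -1.46 to 2.14 on heart Sca1 and -2.62 to -2.01 on side population arrays. Their part in the Spp1 levels was not tested.

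Tnc encodes tenascin-C, a large hexameric glycoprotein of developing and injured tissue that loosens cell adhesion. Its spot read 1805, 2330 and 10854 on heart c-kit arrays, 819, 824 and 945 on heart Sca1 arrays and 106 and 166 on side population arrays. It read 226, 178 and 137 on marrow c-kit arrays, 6092, 5401 and 7776 on MSC arrays, and 341 and 1298 on cardiomyocyte arrays. Heart c-kit cells and MSC were thus the high groups, and they overlapped with each other. Normalised, Tnc averaged 5.84 ± 0.85 on heart c-kit arrays and 5.62 ± 0.64 on MSC arrays (SD, n = 3 each), a difference of 0.23 (95% interval -1.06 to 1.51). On heart Sca1 and marrow c-kit arrays it averaged 2.82 ± 0.23 and 1.51 ± 0.89 (SD, n = 3 each), and on side population and cardiomyocyte arrays 2.14 ± 0.16 and 3.12 ± 0.13 (SD, n = 2 each).

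Tnc was higher in heart c-kit cells than in heart Sca1 cells (3.02 ± 0.60, adjusted p = 0.00534), side population cells (3.71 ± 0.67, adjusted p = 0.00258) and marrow c-kit cells (4.33 ± 0.60, adjusted p = 0.000255). Heart Sca1 cells were lower than MSC (-2.80 ± 0.60, adjusted p = 0.00776), as were side population cells (-3.48 ± 0.67, adjusted p = 0.0031) and marrow c-kit cells (-4.11 ± 0.60, adjusted p = 0.0004). The difference of heart c-kit from heart Sca1 cells was lost with the deposited values unchanged (adjusted p = 0.0510) and with the pair fitted alone (0.0506), and that from side population cells with array weights (0.0900) and with the pair fitted alone (0.165). In heart Sca1 cells minus MSC the call was lost with array medians aligned (-2.87, adjusted p = 0.0682). Heart c-kit cells exceeded cardiomyocytes by 2.72 ± 0.67 (adjusted p = 0.0387) and MSC by 2.49 ± 0.67 (adjusted p = 0.0362). The first was lost in 15 of 28 alternatives and the second in 10, each of them when either cardiomyocyte array was left out (adjusted p = 0.169 and 0.176 for heart c-kit cells, 0.0985 and 0.202 for MSC). For heart c-kit cells it was also lost without heart c-kit replicate 1 or 3, any heart Sca1 replicate, marrow c-kit replicate 3 or MSC replicate 1 or 2 (2.30 to 2.72, adjusted p from 0.0511 to 0.0896). For MSC it was lost without any MSC replicate or any heart Sca1 replicate (2.16 to 2.79, adjusted p from 0.0503 to 0.131). Cardiomyocytes, heart Sca1 cells, side population cells and marrow c-kit cells, in that order, did not differ from their neighbours by a called amount.

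The windows around the start of Spp1 and of Tnc are shown because these are the genes that were high in the same pair of groups, one from the heart and one from the marrow. They run from 250 bases before to 50 bases after the start and come from RefSeq on assembly GRCm38.p6, where 5 of the 7 members matched, with 8 windows in all. Capitals mark the letters searched on both strands: the TATA motif as TATAAA or as TATATAA, the RUNX motif as AACCACA, the AP-1 motif as TGAGTCA or as TGACTCA, and the CCAAT motif by its name. The first of 2 Spp1 windows is chr5:104434861-104435160 on the plus strand and the second Tnc window is chr4:64046887-64047186 on the minus strand.
Spp1: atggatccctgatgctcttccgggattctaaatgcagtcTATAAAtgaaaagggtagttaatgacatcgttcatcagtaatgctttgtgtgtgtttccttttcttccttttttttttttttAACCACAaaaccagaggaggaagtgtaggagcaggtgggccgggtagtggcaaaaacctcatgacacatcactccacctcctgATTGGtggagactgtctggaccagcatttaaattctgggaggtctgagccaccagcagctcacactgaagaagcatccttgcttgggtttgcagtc
Tnc: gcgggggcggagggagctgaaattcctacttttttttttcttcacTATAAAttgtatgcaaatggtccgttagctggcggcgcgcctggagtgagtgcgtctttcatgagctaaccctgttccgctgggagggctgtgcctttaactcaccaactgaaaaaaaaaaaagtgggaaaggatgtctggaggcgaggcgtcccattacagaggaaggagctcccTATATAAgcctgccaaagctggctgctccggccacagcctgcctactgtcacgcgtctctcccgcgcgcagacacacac
In the first Spp1 window, TATAAA begins 211 bases and AACCACA 129 bases before the start, and CCAAT stands on the other strand (read here as ATTGG) 46 bases before it, and the second Spp1 window, chr5:104435942-104436241, holds none of the letters searched. The Tnc window holds TATAAA 205 bases and TATATAA 29 bases before the start. Of the 32851 windows in the table, 15.1% hold a TATA match, 5.27% a RUNX match, 5.20% an AP-1 match and 37.4% a CCAAT match. A TATA match on the gene's strand that begins 35 to 20 bases before the start, as in Tnc, is held by 2.20%. No window of a member holds the AP-1 letters. A match describes these letters only.

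Postn encodes periostin, a secreted protein of collagen-rich tissue that helps to assemble and cross-link collagen fibrils. Its spot read 108, 3 and 2905 on heart c-kit arrays, 5476, 8822 and 3873 on heart Sca1 arrays and 6834 and 10535 on side population arrays. It read 15, 6 and 6 on marrow c-kit arrays, 5169, 4947 and 1103 on MSC arrays, and 772 and 4427 on cardiomyocyte arrays. Side population and heart Sca1 arrays were high, marrow c-kit arrays were close to the bottom of the scale, and the heart c-kit arrays were spread over nearly the whole range. On the normalised scale Postn averaged 0.41 ± 4.07 on heart c-kit arrays, 5.71 ± 0.51 on heart Sca1 arrays, -3.27 ± 1.06 on marrow c-kit arrays and 4.59 ± 0.89 on MSC arrays (SD, n = 3 each). It averaged 6.80 ± 0.09 in side population cells and 5.07 ± 0.32 in cardiomyocytes (SD, n = 2 each).

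Postn was higher than in marrow c-kit cells in heart Sca1 (8.98 ± 1.41, adjusted p = 0.000406) and side population cells (10.07 ± 1.57, adjusted p = 0.000385), and marrow c-kit cells were lower than MSC (-7.86 ± 1.41, adjusted p = 0.00202) and cardiomyocytes (-8.35 ± 1.57, adjusted p = 0.00277). With levels raised to the 30th percentile these 4 differences were 7.91, 9.001, -6.79 and -7.27 and were all called. Heart c-kit cells were lower than heart Sca1 cells (-5.30 ± 1.41, adjusted p = 0.0266) and side population cells (-6.39 ± 1.57, adjusted p = 0.0171). The first of these was lost without heart c-kit replicate 1 or 2 (-4.93 and -3.47, adjusted p = 0.0764 and 0.0856) and without any heart Sca1 replicate (-5.01 to -5.50, adjusted p from 0.0595 to 0.085), and with array medians aligned (-4.68, adjusted p = 0.0646). It was lost too with the pair fitted alone (limma adjusted p = 0.163) and without the 3 dimmest arrays (0.0844). The second was lost without either side population array (-6.45 and -6.33, with a single array left in that group). It was also lost with array weights (limma adjusted p = 0.112) and with the pair fitted alone (0.293). Heart c-kit replicate 3, the array with 2905 for Postn, also had the highest fibroblast marker mean of its group, 2.40 against 0.57 and 0.62 on replicates 1 and 2, and the part of those markers in the spread was not tested. Without that array 2 further Postn differences of heart c-kit cells were called, those from MSC (-6.38, adjusted p = 0.000662) and from cardiomyocytes (-6.86, adjusted p = 0.00156), and without replicate 2 the one from marrow c-kit cells was (5.51, adjusted p = 0.00859). No neighbours in the order of Postn levels (side population, heart Sca1, cardiomyocytes, MSC, heart c-kit, marrow c-kit) differed by a called amount. The nearest to it were heart c-kit cells and MSC (-4.18, 95% interval -7.20 to -1.16, adjusted p = 0.0696).

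The second Postn window is given for comparison with Tnc, and lies on the plus strand at chr3:54360857-54361156 of GRCm38.p6 (RefSeq).
Postn: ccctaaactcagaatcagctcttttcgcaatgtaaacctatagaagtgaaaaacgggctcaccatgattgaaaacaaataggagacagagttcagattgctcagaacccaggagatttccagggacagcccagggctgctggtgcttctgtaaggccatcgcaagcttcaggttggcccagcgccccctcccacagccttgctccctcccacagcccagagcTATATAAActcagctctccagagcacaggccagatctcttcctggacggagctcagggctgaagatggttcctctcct
Capitals mark TATATAA, 28 bases before the start, with the overlapping TATAAA 26 bases before it. In their second windows Postn and Tnc thus share TATA letters at nearly the same distance from the start, while their levels correlated little over the 16 arrays (Pearson r = 0.178, a description over arrays that share groups). The first Postn window holds no TATA letters. The first Tnc window holds TATAAA 126 bases before the start and no TATA match that begins 35 to 20 bases before it.

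Thbs2 encodes thrombospondin-2, which restrains new vessel growth and shapes collagen fibrils. By its brighter probe it read 1330, 195 and 202 on heart c-kit arrays, 12615, 16821 and 10352 on heart Sca1 arrays and 3510 and 2250 on side population arrays. It read 178, 98 and 116 on marrow c-kit arrays, 12872, 12755 and 5263 on MSC arrays, and 1306 and 5844 on cardiomyocyte arrays. Heart Sca1 cells and MSC were high, and marrow c-kit cells and 2 of 3 heart c-kit arrays low. Its normalised mean was 3.11 ± 1.96 on heart c-kit arrays, 6.91 ± 0.28 on heart Sca1 arrays, 0.96 ± 1.04 on marrow c-kit arrays and 6.21 ± 0.44 on MSC arrays (SD, n = 3 each), and 5.42 ± 0.64 on side population arrays and 5.77 ± 0.08 on cardiomyocyte arrays (SD, n = 2 each).

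Marrow c-kit cells held less Thbs2 than MSC (-5.26 ± 0.83, adjusted p = 0.000755) and cardiomyocytes (-4.81 ± 0.93, adjusted p = 0.00325), and heart Sca1 and side population cells held more of it than marrow c-kit cells (5.95 ± 0.83, adjusted p = 0.000148, and 4.47 ± 0.93, adjusted p = 0.00329). Heart c-kit cells were lower than heart Sca1 cells (-3.80 ± 0.83, adjusted p = 0.00966) and MSC (-3.10 ± 0.83, adjusted p = 0.0265). The second of these was lost without heart c-kit replicate 2 or 3 or any MSC replicate (-2.32 to -3.34, adjusted p from 0.0557 to 0.101), and without the 3 dimmest arrays (0.0731). Both were lost with the pair fitted alone (limma adjusted p = 0.0902 and 0.127). The dimmer Thbs2 probe read 199, 8 and 179 on heart c-kit arrays, 5287, 6863 and 3639 on heart Sca1 arrays and 773 and 690 on side population arrays. It read 8, 15 and 43 on marrow c-kit arrays, 4735, 3000 and 2254 on MSC arrays and 162 and 752 on cardiomyocyte arrays. By this probe the same 6 differences were called, and heart c-kit cells were also lower than side population cells (-3.68 ± 0.93, adjusted p = 0.0187, against -2.31 ± 0.93 and 0.129 by the brighter probe). Heart c-kit replicate 1 read higher than the other 2 by the brighter probe. Without it heart c-kit cells were below side population cells (-3.42, adjusted p = 0.00768) and cardiomyocytes (-3.76, adjusted p = 0.0104), and without replicate 3 they were above marrow c-kit cells (2.93, adjusted p = 0.0343). In the order of Thbs2 levels by the brighter probe (heart Sca1, MSC, cardiomyocytes, side population, heart c-kit, marrow c-kit) no neighbours differed by a called amount. The probes were unlike in cardiomyocytes, which by the dimmer probe (1.74 ± 0.74) lay below side population cells (3.93 ± 0.29, SD, n = 2 each). By that probe, on all arrays, MSC minus cardiomyocytes was 2.91 (limma adjusted p = 0.0724), against 0.44 by the brighter one. Heart c-kit cells minus cardiomyocytes was -1.49 (0.481), against -2.66 (0.151).

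Thbs1 encodes thrombospondin-1, a protein of platelet granules and of injured tissue that binds CD36 and CD47 and can activate latent TGF-beta. Its spot read 186, 185 and 1840 on heart c-kit arrays, 5049, 7403 and 3014 on heart Sca1 arrays and 6772 and 9115 on side population arrays. It read 3902, 7598 and 2948 on marrow c-kit arrays, 18638, 24787 and 15766 on MSC arrays, and 946 and 4186 on cardiomyocyte arrays. Heart c-kit cells were the low group, and Thbs1 was the only one of the 7 genes for which marrow c-kit cells were among the 3 highest groups. After normalisation Thbs1 averaged 2.52 ± 1.61 on heart c-kit arrays, 5.46 ± 0.57 on heart Sca1 arrays, 6.61 ± 0.79 on marrow c-kit arrays and 7.27 ± 0.06 on MSC arrays (SD, n = 3 each), and 6.69 ± 0.04 on side population arrays and 5.23 ± 0.02 on cardiomyocyte arrays (SD, n = 2 each).

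Heart c-kit cells were lower in Thbs1 than heart Sca1 cells (-2.93 ± 0.71, adjusted p = 0.0172), side population cells (-4.17 ± 0.80, adjusted p = 0.00378), marrow c-kit cells (-4.08 ± 0.71, adjusted p = 0.00168) and MSC (-4.74 ± 0.71, adjusted p = 0.000906), and these were its only called differences outside the alternatives. That from heart Sca1 cells was lost without heart c-kit replicate 1 (-2.15, adjusted p = 0.0538) or heart Sca1 replicate 1 or 2 (-2.95 and -2.64, adjusted p = 0.0527 and 0.0719), and with the pair fitted alone (0.130). That from side population cells was lost with array weights (limma adjusted p = 0.0592) and with the pair fitted alone (0.202). With array medians aligned in place of quantile normalisation, the differences from heart Sca1 and marrow c-kit cells were also not called (-2.41 and -2.76, adjusted p = 0.127 and 0.0986). The difference from cardiomyocytes was -2.70 (95% interval -4.42 to -0.99, adjusted p = 0.084), and it was called without heart c-kit replicate 3 (-3.53, adjusted p = 0.0116) and with a trended and robust variance (0.0302). Heart Sca1 cells minus MSC (-1.81) was called with array weights (limma adjusted p = 0.0123) and with the pair fitted alone (0.0211). MSC minus cardiomyocytes was called with the deposited values unchanged (3.52, limma adjusted p = 0.0459) and with the pair fitted alone (2.04, 0.0374). Side population and marrow c-kit cells differed in Thbs1 by 0.09 (-1.63 to 1.80). The levels of Thbs1 and Thbs2 correlated weakly over the 16 arrays (Pearson r = 0.092, Spearman rho = 0.103, a description).

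Sparc encodes osteonectin, a calcium-binding glycoprotein that chaperones collagen. Its spot read 11109, 26798 and 26414 on heart c-kit arrays, 26206, 32387 and 30132 on heart Sca1 arrays and 18839 and 24402 on side population arrays. It read 2, 172 and 1 on marrow c-kit arrays, 28685, 37616 and 27754 on MSC arrays, and 11231 and 36360 on cardiomyocyte arrays. Marrow c-kit arrays were the exception, with Sparc near the bottom of the scale on replicates 1 and 3. Normalised levels of Sparc averaged 8.24 ± 0.29 on heart c-kit arrays, 8.08 ± 0.27 on heart Sca1 arrays, -3.20 ± 3.50 on marrow c-kit arrays and 8.005 ± 0.12 on MSC arrays (SD, n = 3 each), and 8.06 ± 0.04 on side population arrays and 8.65 ± 0.19 on cardiomyocyte arrays (SD, n = 2 each).

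Sparc was 11.44 ± 1.17 log2 units higher in heart c-kit cells than in marrow c-kit cells (adjusted p = 1.85e-05), and the other 4 differences from marrow c-kit cells were as large (11.28 ± 1.17 for heart Sca1 cells, 11.26 ± 1.31 for side population cells, -11.20 ± 1.17 for marrow c-kit cells minus MSC and -11.85 ± 1.31 for marrow c-kit cells minus cardiomyocytes, adjusted p from 1.16e-05 to 3.72e-05). With low levels raised to the 30th percentile their sizes were 9.48, 9.32, 9.30, -9.24 and -9.89 in the same order. Between the other 5 groups none of 10 Sparc differences was called, nor did any have an unadjusted p under 0.05. The interval of heart c-kit minus heart Sca1 cells was -2.35 to 2.67 around 0.16. The fit pools the spread over all groups, and the marrow c-kit arrays, which run from -5.50 to 0.83, enter it.

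Sparcl1 encodes hevin, a relative of osteonectin that is abundant in brain and in vessel walls. Its spot read 2275, 9539 and 4764 on heart c-kit arrays, 34536, 38056 and 28560 on heart Sca1 arrays and 8172 and 17464 on side population arrays. It read 223, 181 and 56 on marrow c-kit arrays, 322, 403 and 161 on MSC arrays, and 11490 and 29891 on cardiomyocyte arrays. Every array of the 4 groups from the heart was above every marrow array. Sparcl1 had normalised means of 6.20 ± 0.69 on heart c-kit arrays, 8.30 ± 0.12 on heart Sca1 arrays, 0.96 ± 1.51 on marrow c-kit arrays and 1.27 ± 0.36 on MSC arrays (SD, n = 3 each), and 7.27 ± 0.42 on side population arrays and 8.49 ± 0.44 on cardiomyocyte arrays (SD, n = 2 each).

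All 8 Sparcl1 differences between a heart group and a marrow group were called, and none of the other 7 was. Heart c-kit cells exceeded marrow c-kit cells by 5.24 ± 0.68 (adjusted p = 0.000149) and MSC by 4.93 ± 0.68 (adjusted p = 0.000522). Heart Sca1 cells exceeded the same groups by 7.34 ± 0.68 (adjusted p = 4.05e-06) and 7.03 ± 0.68 (adjusted p = 2.75e-05), and side population cells by 6.31 ± 0.76 (adjusted p = 4.85e-05) and 6.00 ± 0.76 (adjusted p = 0.000181). Against cardiomyocytes, marrow c-kit cells were lower by 7.53 (-7.53 ± 0.76, adjusted p = 1.76e-05) and MSC by 7.22 (-7.22 ± 0.76, adjusted p = 0.000147). Each of these 8 was called under every alternative that gave a value. Marrow c-kit cells and MSC differed by -0.31 (95% interval -1.77 to 1.16). Among heart groups the nearest to a call was heart c-kit minus heart Sca1 cells, at -2.10 ± 0.68 (adjusted p = 0.0646), and it was called without marrow c-kit replicate 1 or 3 (adjusted p = 0.0326 and 0.0341). It was also called with a trended and robust variance (0.0292), with the lowest 30% of genes removed (0.0432), with low levels raised (0.0457) and with the replicate block (0.0499), each at the same size. Endothelial markers had mean levels of 4.97 to 5.70 on heart c-kit, 1.09 to 5.28 on heart Sca1 and 1.05 to 1.14 on side population arrays, 0.04 to 0.17 on marrow c-kit and -0.96 to -0.86 on MSC arrays, and 6.46 to 6.81 on cardiomyocyte arrays. Their part in the Sparcl1 differences was not tested.

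In heart c-kit minus heart Sca1 cells 5 of 7 members were called, where 11.1% of all genes were. Spp1 and Tnc were higher (3.29% of all genes higher) and Postn, Thbs1 and Thbs2 lower (7.81% lower). With this pair fitted alone all 5 calls were lost. The limma adjusted p was then 0.0732 for Spp1, 0.0506 for Tnc, 0.163 for Postn, 0.130 for Thbs1 and 0.0902 for Thbs2. Fibroblast markers had mean levels of 0.57 to 2.40 on heart c-kit arrays and 6.37 to 6.54 on heart Sca1 arrays, and endothelial markers 4.97 to 5.70 on heart c-kit arrays and 1.09 to 5.28 on heart Sca1 arrays. The part of either list in these calls, or in those against side population cells (fibroblast 5.54 to 5.69, endothelial 1.05 to 1.14), was not tested. In heart c-kit minus side population cells 4 were called (11.8% of all genes), with Spp1 and Tnc higher (5.99%) and Postn and Thbs1 lower (5.79%). In heart c-kit minus marrow c-kit cells 5 were called (10.8%), with Spp1, Sparc, Sparcl1 and Tnc higher (4.88%) and Thbs1 lower (5.91%). In heart c-kit cells minus MSC 4 were called (12.1%), with Sparcl1 higher (4.11%) and Spp1, Thbs1 and Thbs2 lower (8%). Spp1 and Thbs1 were called in all 4 of these pairs, but Spp1 changed sign between them while Thbs1 was lower in heart c-kit cells each time. All these comparisons share the heart c-kit arrays.

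In heart Sca1 minus side population cells 1 member was called, Spp1, where 6.83% of all genes were called, 4.62% higher and 2.21% lower. Postn, Sparc, Sparcl1 and Thbs2 were higher in heart Sca1 than marrow c-kit cells and none was lower, where 16.5% of all genes were called, 10% higher and 6.46% lower. In heart Sca1 cells minus MSC 3 were called (10.3%), with Sparcl1 higher (5.3%) and Spp1 and Tnc lower (5.01%). In side population minus marrow c-kit cells 5 were called (21.2%), with Postn, Sparc, Sparcl1 and Thbs2 higher (9.92%) and Spp1 lower (11.3%). In side population cells minus MSC 3 were called (17.7%), with Sparcl1 higher (7.06%) and Spp1 and Tnc lower (10.6%). Marrow c-kit cells were lower than MSC in 5 and higher in none, where 11% of all genes were called, 3.66% higher and 7.35% lower. Sparcl1 and Thbs1 were the members not called there, at -0.31 and -0.66 (interval -2.19 to 0.87).

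Against cardiomyocytes, heart c-kit cells were called higher in 2 members, Spp1 and Tnc, and lower in none, where 3.58% of all genes were called, 0.994% higher and 2.59% lower. Of the 7 differences 5 were negative, and 6 of the 7 had an unadjusted p under 0.05. Postn (-4.66), Thbs1 (-2.70), Thbs2 (-2.66) and Sparcl1 (-2.29) were thus lower in heart c-kit cells without being called (limma adjusted p from 0.084 to 0.151). Heart Sca1 cells differed in 0 of 7, where 0% of all genes were called by limma, and 1 member, Spp1 (2.75, interval 1.17 to 4.32), had an unadjusted p under 0.05. Side population cells were lower in 1, Spp1, where 5.17% of all genes were called, 1.89% higher and 3.29% lower. Marrow c-kit cells were lower in 4 (Postn, Sparc, Sparcl1 and Thbs2), where 12.4% of all genes were called, 4.99% higher and 7.43% lower. MSC differed in 3 (7.87%), with Spp1 and Tnc higher (3.93%) and Sparcl1 lower (3.94%). The cardiomyocyte arrays also carried fibroblast and endothelial markers, and the part of those in the levels of the secreted proteins there was not tested.

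**Figure D3:**
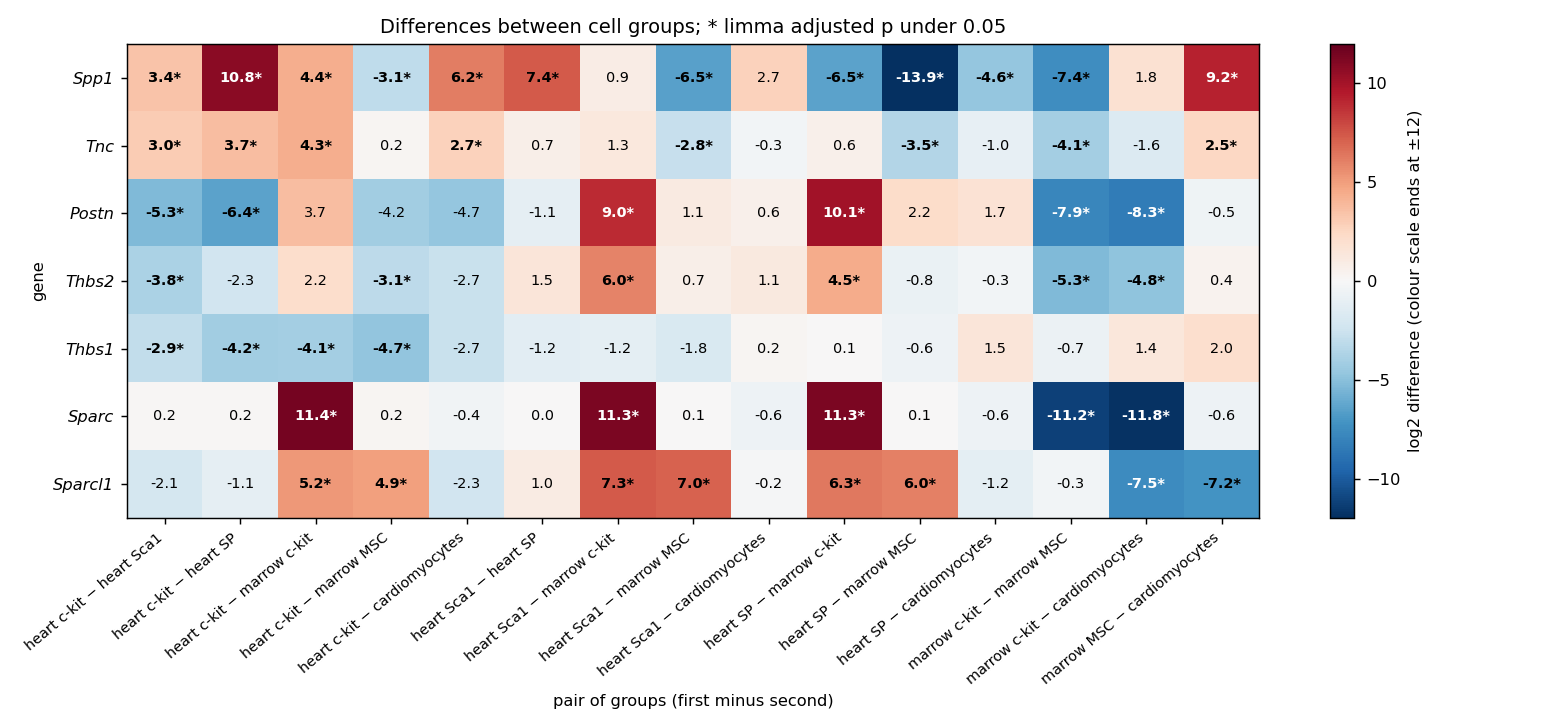
Log2 difference (colour and number, first group minus second) of the 7 matricellular genes (rows) in the 15 pairs of groups (columns), with a star for an adjusted p under 0.05 in limma; SP is the side population. Sparc is starred only in the 5 pairs with marrow c-kit cells, and Spp1 is starred in 12 pairs.

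The difference between heart and marrow was next compared between the c-kit sorted cells and the pair of heart Sca1 cells and MSC. It was unlike for 3 of 7 members, where 7.43% of all genes had a called interaction. Spp1 was 4.35 higher in heart c-kit than marrow c-kit cells but -6.49 in heart Sca1 cells minus MSC (interaction 10.84 ± 0.93, adjusted p = 2.29e-05). Tnc was 4.33 higher in the first pair and -2.80 in the second (7.13 ± 0.85, adjusted p = 0.000198). Sparc was 11.44 higher in the first and 0.08 in the second (11.36 ± 1.66, adjusted p = 0.000919). Spp1 and Tnc thus had opposite signs in the 2 pairs, each called, while Sparc differed in 1 of them.

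The other 4 interactions were not called. For Sparcl1 it was -1.79 (95% interval -3.87 to 0.28, adjusted p = 0.325), with heart above marrow by 5.24 and 7.03. For Thbs1 it was -2.27 (-4.44 to -0.10, adjusted p = 0.217), with heart minus marrow at -4.08 and -1.81. Postn (2.57, interval -1.71 to 6.84, adjusted p = 0.525) and Thbs2 (1.46, interval -1.06 to 3.98, adjusted p = 0.545) had wide intervals. The 2 pairs differ in more than the organ, since MSC were cultured for 5 passages and heart Sca1 cells were sorted, and these cannot be told apart here. Macrophage markers had mean levels of -1.46 to 2.14 on heart Sca1 and 4.96 to 5.65 on MSC arrays, and fibroblast markers 6.37 to 6.54 on heart Sca1 and 0.14 to 0.84 on MSC arrays. The c-kit pair differed in markers too. Endothelial markers had 4.97 to 5.70 on heart c-kit and 0.04 to 0.17 on marrow c-kit arrays. The 10 neutrophil markers had -2.29 to -1.12 and 3.59 to 3.93, in the same order. The 8 measured hematopoietic progenitor markers had 0.43 to 1.87 and 3.26 to 3.67. The part of all these lists in the interactions was not tested.

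**Figure D4:**
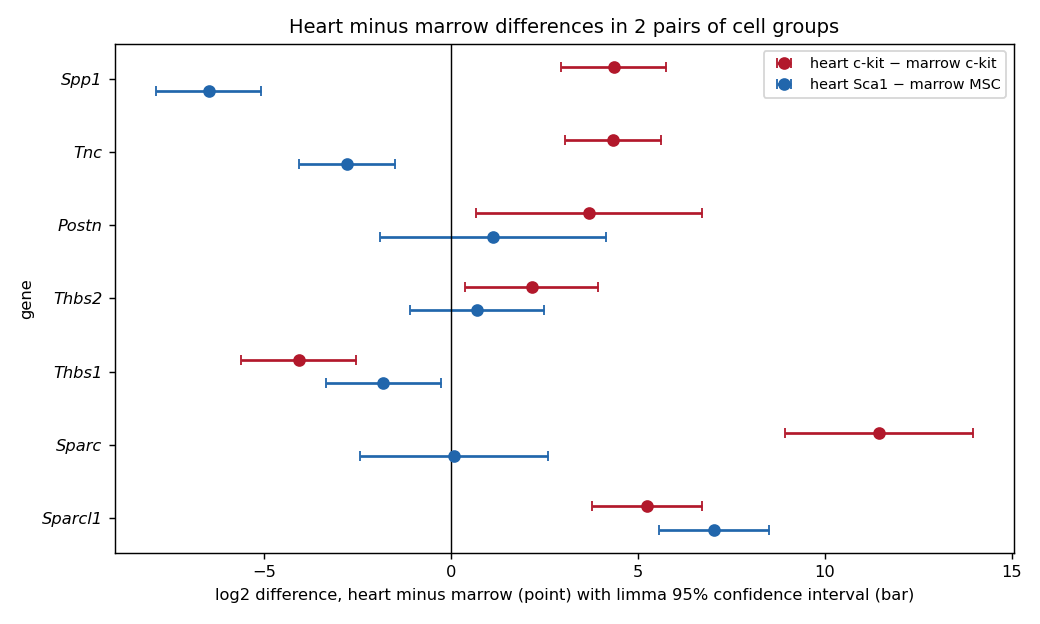
Heart minus marrow log2 difference (x axis) of the 7 matricellular genes (y axis) for heart c-kit minus marrow c-kit cells (red) and heart Sca1 cells minus marrow MSC (blue), with 95% confidence intervals from limma as bars. Spp1 and Tnc lie right of 0 in red and left of 0 in blue, and Sparcl1 lies right of 0 in both.

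Among 24 measured relatives and other matricellular genes, 18 differed among the 6 groups, where 31.9% of all genes did. In heart c-kit minus heart Sca1 cells 0 were higher and 12 lower (list median -3.23, all genes 0.23), while 7.81% of all genes were lower. They included Tnxb, tenascin-X (-10.16 ± 0.78, adjusted p = 3.38e-06, with 1 heart c-kit array at the fill value and -9.02 with low levels raised to the 30th percentile, a setting applied to the list genes after seeing the data), Mfap5, a microfibril protein (-8.78 ± 1.08, adjusted p = 0.000186), and Ccn5 (-7.53 ± 0.74, adjusted p = 3.28e-05). Tnxb thus ran opposite to Tnc between these groups. In heart c-kit minus marrow c-kit cells 7 were higher (4.88% of all genes) and 2 lower (5.91%), with a list median of 1.60 (all genes 0.11). They included Fstl1 (8.83, with 1 marrow c-kit array at the fill value, 7.56 with low levels raised), Ccn2, connective tissue growth factor (7.26 ± 0.59), and Igfbp7 (6.30 ± 0.46), with adjusted p from 1.19e-06 to 4.67e-05. For list genes, sizes with low levels raised are given only where an array was at the fill value. Other arrays can also lie under the 30th percentile (-2.27), and sizes against them depend on levels near the bottom of the scale.

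In heart Sca1 cells minus MSC 6 of the 24 were higher (5.3% of all genes) and 1 lower (5.01%), with a list median of 1.74 (all genes -0.10). The higher ones included Mfap5 (9.93 ± 1.08), Tnxb (9.46 ± 0.78) and Fbln1, fibulin-1 (7.64 ± 0.89), with adjusted p from 9.3e-06 to 0.000108. On MSC arrays Mfap5 ran from -5.72 to -0.73, Tnxb from -3.69 to -1.93 and Fbln1 from -3.05 to -1.09. In marrow c-kit cells minus MSC 0 were higher and 12 lower (7.35% of all genes, list median -3.12, all genes 0.14), with Ccn2 (-10.97 ± 0.59), Ccn4 (-9.11 ± 1.40) and Fstl1 (-8.54, 1 marrow c-kit array at the fill value, -7.27 with low levels raised) among them. Against cardiomyocytes, heart c-kit cells had 0 higher and 8 lower (2.59% of all genes) and MSC 1 higher (3.93%) and 3 lower (3.94%), each with Tnxb (-7.85, or -6.71 with low levels raised, and -7.15 ± 0.87) and Mfap5 (-5.86 ± 1.21 and -7.01 ± 1.21). Mfap5 and Fbln1 also stand in the fibroblast marker list.

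Of 24 matrix partners, the collagens, proteoglycans and enzymes that matricellular proteins bind or work with, 21 differed among the groups, where 31.9% of all genes did. Heart c-kit cells had 0 higher and 15 lower than heart Sca1 cells (7.81% of all genes lower, list median -3.68, all genes 0.23). Among them were the elastin gene Eln (-7.02 ± 0.74, adjusted p = 5.18e-05), Col5a1 and Col3a1. Each of these collagens was at the fill value on 2 heart c-kit arrays, so that their differences (-9.80 and -9.71) depend on it, and with low levels raised to the 30th percentile they were -6.57 and -6.81. Against marrow c-kit cells heart c-kit cells had 10 higher (4.88% of all genes) and 0 lower (list median 1.53, all genes 0.11), among them perlecan, Hspg2 (7.92 ± 0.46), decorin, Dcn (7.44 ± 0.77), and the collagen chaperone Serpinh1 (7.17 ± 0.54). Heart Sca1 cells exceeded MSC in 8 (5.3% of all genes) and were below in 0 (list median 1.5004, all genes -0.10), with Eln (9.14 ± 0.74), lumican, Lum (7.89 ± 1.55), and Col3a1 (6.36 ± 0.68) in front. Marrow c-kit cells had 0 higher and 16 lower than MSC (7.35% of all genes, list median -4.44, all genes 0.14), with Hspg2 (-8.98 ± 0.46), Col1a2 (-10.78, 2 marrow c-kit arrays at the fill value) and the cross-linking enzyme Lox (-10.39, 1 array at it) among them. With low levels raised, Col1a2 was -7.44 and Lox -8.05. Of this list, Col1a1, Col1a2, Col3a1, Dcn and Lum are also fibroblast markers.

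Among 25 receptors, 20 differed among the groups, where 31.9% of all genes did. Heart c-kit cells had 3 higher (3.29% of all genes) and 9 lower (7.81%) than heart Sca1 cells (list median -0.79, all genes 0.23), with Lrp1, a receptor for thrombospondins (-7.46 ± 1.27, adjusted p = 0.0019), Egfr (-6.69 ± 1.83, adjusted p = 0.0306) and the integrin gene Itga8 (-5.70 ± 0.96, adjusted p = 0.00178) in front. Egfr ran from 4.57 to 5.02 on heart Sca1 arrays but from -6.33 to 4.23 on heart c-kit arrays, where Lrp1 ran from -3.24 to 3.57. Against marrow c-kit cells there were 4 higher (4.88%) and 4 lower (5.91%, list median 1.17, all genes 0.11), with caveolin-1, Cav1 (7.44 ± 0.73), above and Itga4 (-6.71, 2 heart c-kit arrays at the fill value, -3.58 with low levels raised) and the leukocyte integrin gene Itgb2 (-5.99 ± 0.83) below. Heart Sca1 cells minus MSC gave 6 higher (5.3%) and 5 lower (5.01%, list median -0.58, all genes -0.10), with the myeloid integrin genes Itgax (-7.07 ± 0.79) and Itgb2 (-6.83 ± 0.83) below and Itga8 (5.86 ± 0.96) above. In marrow c-kit cells minus MSC 1 was higher (3.66%) and 11 lower (7.35%, list median -1.73, all genes 0.14), with Egfr (-7.78), Itgb5 (-7.46 ± 0.75) and Lrp1 (-6.93 ± 1.27) among them. Egfr was at the fill value on 1 marrow c-kit array, and with low levels raised it was -4.79 and no longer called (adjusted p = 0.0505).

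Of 16 proteases that cleave matricellular proteins 12 differed among the groups, where 31.9% of all genes did. Heart c-kit cells had 0 higher and 4 lower (7.81% of all genes) than heart Sca1 cells (list median -1.15, all genes 0.23), including Adamts5 (-8.83, 2 heart c-kit arrays at the fill value, -6.26 with low levels raised), Mmp2 (-4.08 ± 0.79) and Adamts1 (-2.05 ± 0.48). They had 7 higher (4.88%) and 0 lower than marrow c-kit cells (list median 1.96, all genes 0.11), with Adamts4 (10.13 ± 0.71), Mmp3, stromelysin-1 (9.52, 1 marrow c-kit array at the fill value, 7.71 with low levels raised), and Adamts1 (7.67 ± 0.48) among them. Heart Sca1 cells minus MSC gave 3 higher (5.3%) and 2 lower (5.01%, list median 0.15, all genes -0.10), among them the macrophage protease cathepsin S, Ctss (-7.77 ± 1.23), Adamts5 (7.25 ± 1.30) and Adamts1 (5.18 ± 0.48). Marrow c-kit cells had 0 higher and 11 lower than MSC (7.35% of all genes, list median -3.57, all genes 0.14), with Adamts4 (-9.15 ± 0.71), the membrane-bound protease Mmp14 (-6.38 ± 0.48) and Ctss (-4.63 ± 1.23) in front. Adamts4 ran from -5.50 to -2.05 on marrow c-kit arrays, and Adamts5 from -6.33 to -1.37 on MSC arrays. Their sizes against these groups therefore depend on levels near the bottom of the scale.

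Of 17 genes of the TGF-beta axis, which induces several of the 7 members, 9 differed among the groups, where 31.9% of all genes did. Heart c-kit cells had 0 higher and 7 lower (7.81% of all genes) than heart Sca1 cells (list median -0.49, all genes 0.23), led by Tgfb2 (-7.81 ± 1.59, adjusted p = 0.00628), Tgfb3 (-6.29 ± 0.78, adjusted p = 0.000191) and the latent TGF-beta binding protein Ltbp3 (-6.08 ± 1.39, adjusted p = 0.0123). They had 3 higher (4.88%) and 0 lower than marrow c-kit cells (list median 1.83, all genes 0.11), namely Skil (2.27 ± 0.53), Tgfbr3 (1.83 ± 0.55) and the inhibitor Smad7 (4.95). Smad7 was at the fill value on 2 marrow c-kit arrays, and with low levels raised it was 2.41 and no longer called (adjusted p = 0.117). Heart Sca1 cells exceeded MSC in 2 (5.3%, list median 0.71, all genes -0.10), the receptors Tgfbr3 (3.43 ± 0.55) and Tgfbr2 (3.05 ± 0.65), and marrow c-kit cells had 0 higher and 7 lower than MSC (7.35%, list median -2.12, all genes 0.14), led by Tgfb2 (-7.79 ± 1.59), Ltbp2 (-7.39 ± 0.80) and Tgfb3 (-5.88 ± 0.78). Tgfb2 ran from -6.36 to -3.41 on marrow c-kit arrays and from -6.30 to 2.84 on heart c-kit arrays. Among 11 measured osteogenic genes, with which Spp1 is classed in bone, 5 differed among the groups, beside 31.9% of all genes. Heart Sca1 cells minus MSC gave 1 higher (5.3% of all genes), Sp7, the osterix gene (4.54 ± 1.22, adjusted p = 0.029), and 2 lower (5.01%), Ibsp, bone sialoprotein (-4.87 ± 0.86, adjusted p = 0.00224), and Msx2. Msx2 was at the fill value on all 3 heart Sca1 arrays. If that value marks a low signal, the bound with low levels raised was -1.86 or beyond (limma adjusted p = 3.59e-06).

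The genes most like each member were those with the highest Pearson r over the 16 arrays, among 17406 genes above the fill value on at least 8 arrays. These r are descriptions, since the arrays share 6 groups and a common normalisation. Postn was most like Tgfb2 (0.970), Fbln5 (0.970) and Fat4 (0.969), with Spearman rho from 0.795 to 0.929. Tgfb2 averaged -1.31 ± 4.62 in heart c-kit cells and 6.51 ± 0.10 in heart Sca1 cells (SD, n = 3 each), so it shared the wide spread of Postn among the heart c-kit arrays. Thbs2 was most like Galnt17 (0.949), Fkbp14 (0.930) and Pmepa1 (0.927). Among the members themselves the highest r was that of Postn and Thbs2 (0.797), then that of Spp1 and Tnc (0.748).

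Spp1 was most like Mcoln1, a lysosomal channel (0.916), Trappc4 (0.900) and Chpf2 (0.894). Tnc was most like Prdx1, a peroxiredoxin (0.904), Lipa, lysosomal acid lipase (0.893), and the transcription factor gene Tfe3 (0.872). Lipa averaged 6.69 ± 0.22 on heart c-kit arrays, 3.65 ± 1.22 on marrow c-kit arrays and 6.67 ± 0.17 on MSC arrays (SD, n = 3 each). Sparcl1 was most like Igfbp3 (0.970), the angiopoietin receptor gene Tek (0.964) and Pnrc1 (0.958), and Tek averaged 4.12 ± 0.50 on heart c-kit arrays and 6.25 ± 0.26 on heart Sca1 arrays but -2.18 ± 0.70 on marrow c-kit arrays and -2.76 ± 0.86 on MSC arrays (SD, n = 3 each). Sparc was most like Plagl1 (0.981), Rhoc (0.977) and Adamts4 (0.968), but its Spearman rho with these was 0.768, 0.544 and 0.471. Thbs1 was most like Cdk10 (0.927), Ankrd27 (0.906) and Tmem256 (0.890).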

How the data were processed

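Per the labels' protocols, total RNA was amplified with the WT-Ovation Pico system, labelled with Cy5 and hybridised to a mouse array of which the Cy5 channel alone was used. The deposited values are log2 intensities, which the authors centred on each array: the mean is within 0.001 of 0 on 15 of 16 arrays. The scanner, the background correction and the genome build were not given in the sources used here. Of 26423 probes, 20377 have a gene symbol and 6046 have none. Here the arrays were quantile normalised over all probes, and the probe with the highest mean stood for a gene. A model with 6 group means was fitted to all 17710 genes with limma 3.58.1 (R 4.3.3), with Benjamini-Hochberg adjusted p-values over all genes. The differences run over 15 pairs of groups, with an F-test across groups and an interaction, and a call is an adjusted p under 0.05. The precision is set by the 2 or 3 arrays of each group. The fit was also run on simulated arrays with independent noise, the same spread of a gene in every group and no fill values. That run cannot show how the fit handles unequal spreads or fill values, and nothing is concluded from it here.

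The members and the gene lists were chosen with earlier results of these data known. All 7 members were named, with up to 3 called genes of the largest difference from each list and pair described, and the 3 genes with the highest r for each member. Motifs were searched in RefSeq windows of GRCm38.p6. The alternatives were other normalisations, low-value filters, probe rules, variance models, a replicate block, fits on each pair alone and leaving out each array. Their effects are in the closing section.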

Additional observations from a re-analysis of the deposited data

Results flagged for a closer look

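For 3 of the 7 genes the difference between heart and marrow was not the same in the c-kit sorted cells as in the pair of heart Sca1 cells and marrow MSC, by a test of the difference itself (limma, n = 3 arrays in each of 4 groups). The interaction was 11.36 for Sparc (adjusted p = 0.000919), 10.84 for Spp1 (adjusted p = 2.29e-05) and 7.13 for Tnc (adjusted p = 0.000198), in log2 units. For Spp1 and Tnc the sign of the difference turned between the pairs, and for Sparc the low level of marrow c-kit cells is the term that departs. Marker levels also differed between the 2 groups of each pair. Macrophage markers were at -1.46 to 2.14 on heart Sca1 and 4.96 to 5.65 on MSC arrays. Fibroblast markers were at 6.37 to 6.54 on heart Sca1 and 0.14 to 0.84 on MSC arrays. Endothelial markers were at 4.97 to 5.70 on heart c-kit and 0.04 to 0.17 on marrow c-kit arrays. Neutrophil markers were at -2.29 to -1.12 on heart c-kit and 3.59 to 3.93 on marrow c-kit arrays. The part of these markers was not tested. Groups of 2 or 3 arrays were not tested for a single outlying array, but the range of each interaction with arrays left out in turn is in the next section.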

How the results depend on the processing

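Of the 49 called differences, 32 were called in every alternative that gave a value and 17 were lost in at least 1 of 28, and none changed sign. The count was 45 to 51 when each of the 16 arrays was left out in turn, 45 with array medians aligned, 49 with the deposited values unchanged, 45 with array weights, 52 with a trended and robust variance and 38 with each pair fitted alone, where fewer arrays inform the spread. The interaction of Spp1 ranged from 9.97 to 11.39, that of Sparc from 9.40 to 13.38 and that of Tnc from 6.71 to 7.93, and all were called throughout. The fits on each pair alone lost 13 calls and gained 2, and all 5 calls of heart c-kit minus heart Sca1 cells were among those lost. With medians aligned in place of quantile normalisation 7 calls were lost and 3 gained. Lost were Postn (-4.68, adjusted p = 0.0646) and Thbs1 (-2.41, adjusted p = 0.127) in heart c-kit minus heart Sca1 cells, Thbs1 in heart c-kit minus marrow c-kit cells (-2.76, adjusted p = 0.0986), Spp1 in heart c-kit cells minus MSC (-2.72, adjusted p = 0.0956), Tnc in heart Sca1 cells minus MSC (-2.87, adjusted p = 0.0682), and Tnc against cardiomyocytes in heart c-kit cells (4.04, adjusted p = 0.0763) and MSC (3.66, adjusted p = 0.0527). Gained were Thbs2 in heart c-kit minus side population cells (-4.25, adjusted p = 0.00304), and Thbs1 (4.93, adjusted p = 0.0189) and Thbs2 (2.98, adjusted p = 0.0398) in side population cells minus cardiomyocytes. The cause was not tested.

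Replicate numbers recur across groups. To look for a link between them, the mean of its group was taken off each gene, and the remainders were correlated between arrays of different groups. Over 36 same-numbered pairs of arrays these correlations ran from -0.183 to 0.399 and averaged 0.0231, against -0.0119 for other pairs. Only 4 were over 0.1, though 8 of 16 arrays correlated best with their own number, and the samples were taken to share only a number. With the replicate block 48 differences were called. Tnc against cardiomyocytes was lost for heart c-kit cells (2.55, adjusted p = 0.0680) and MSC (2.32, adjusted p = 0.0609), and Sparcl1 in heart c-kit minus heart Sca1 cells was gained (-2.10, adjusted p = 0.0499). Chosen after seeing the data, the other Thbs2 probe gave 50 calls, and leaving out the 3 dimmest arrays gave 34 over the 10 pairs that remained, against 35. The dim side population arrays limit what can be said of Spp1 there to a bound, and it holds only if the fill value marks a low signal.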
